A study of Mus musculus with 2 samples.

Results

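The 9 microRNA (miRNA) genes described here form the 2 paralog clusters of the miR-17-92 cluster: Mir106b, Mir93 and Mir25 of the miR-106b-25 cluster, and Mir106a, Mir18b, Mir20b, Mir19b-2, Mir92-2 and Mir363 of the miR-106a-363 cluster. They were chosen by identifier, not by a rule on their values, though earlier results of these data were known. They are 9 of the 1973 miRNA genes with a row in the deposited count tables. Small RNA under 30 bases was sequenced from the forebrain of strain B6NCrl mouse embryos at embryonic day 11.5. The only group holds 2 biological replicates, untreated tissue pooled from 109 embryos (replicate 1) and 88 embryos (replicate 2), males and females together. Both pools carry the same donor entry in the labels. With 1 group there is no comparison between conditions, so the clusters are compared with each other, hairpin by hairpin, and the replicate libraries with each other.

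An miRNA gene is transcribed as a hairpin, from which a mature miRNA of about the length sequenced here is cut out of either arm, the 5p or the 3p arm. The mature miRNA guides a silencing complex to messenger RNAs, mainly through its seed, bases 2 to 8 from the 5′ end, so that miRNAs with the same seed are expected to share targets. The miR-17-92 cluster and its paralogs are known from dividing progenitors, the neural progenitors of the developing brain among them, where they repress inhibitors of the cell cycle and inducers of cell death. The miR-106b-25 cluster sits inside Mcm7, a gene for a subunit of the helicase that opens DNA for replication, and the miR-106a-363 cluster lies on the X chromosome.

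The seeds show which hairpins of the clusters can be set against each other. Mature sequences are from RefSeq (build GRCm38), given for the arm known as the main product, with the seed in capitals. Hairpins with the miR-17 seed stand in all 3 clusters, and the members are followed by Mir17 and Mir20a of the miR-17-92 cluster.
miR-106b-5p (Mir106b): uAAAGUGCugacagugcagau
miR-93-5p (Mir93): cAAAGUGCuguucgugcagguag
miR-106a-5p (Mir106a): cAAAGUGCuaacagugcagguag
miR-20b-5p (Mir20b): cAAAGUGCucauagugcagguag
miR-17-5p (Mir17): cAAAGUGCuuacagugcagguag
miR-20a-5p (Mir20a): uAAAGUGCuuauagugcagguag
Counted from 1 at the 5′ end, miR-106a-5p differs from miR-17-5p by the single substitution A10U, and miR-20b-5p from miR-20a-5p by C1U and C10U. Between the paralog clusters, miR-93-5p differs from miR-106a-5p by G10A, U11A, U12C and C13A, and from miR-20b-5p by G10C, U11A and C13A.

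The miR-92 seed is likewise found in all 3 clusters. In these it is carried by Mir25, by Mir92-2 and Mir363, and by Mir92-1. Elsewhere it stands in Mir92b, Mir32 and Mir367, the last hardly counted here and not shown.
miR-25-3p (Mir25): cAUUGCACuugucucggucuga
miR-92a-3p (Mir92-2 and Mir92-1): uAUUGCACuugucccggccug
miR-363-3p (Mir363): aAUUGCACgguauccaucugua
miR-92b-3p (Mir92b): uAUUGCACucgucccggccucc
miR-32-5p (Mir32): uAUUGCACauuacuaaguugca
Outside the seed miR-363-3p and miR-32-5p part widely from the other sequences, which lie closer together. Over 22 bases miR-25-3p and miR-363-3p differed at 13, whereas over 21 bases miR-25-3p and miR-92a-3p differed at 3.

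Mir18b and Mir19b-2 have no counterpart in the miR-106b-25 cluster. Their seeds are shared with the miR-17-92 cluster alone.
miR-18b-5p (Mir18b): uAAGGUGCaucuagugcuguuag
miR-18a-5p (Mir18): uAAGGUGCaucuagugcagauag
miR-19b-3p (Mir19b-2 and Mir19b-1): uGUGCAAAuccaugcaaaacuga
miR-19a-3p (Mir19a): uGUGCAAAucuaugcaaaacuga
miR-18b-5p differs from miR-18a-5p by U18A and U20A, and miR-19b-3p from miR-19a-3p by C11U.

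Identical mature sequences limit what can be read from 2 members. Reads that map to several places were kept out of the gene counts, and miR-19b-3p and miR-92a-3p each stand whole in 2 hairpins. The longest stretch that Mir19b-2 shares with Mir19b-1 is 25 bases, and Mir92-2 shares 22 bases with Mir92-1 (in capitals below).
Mir19b-2 hairpin: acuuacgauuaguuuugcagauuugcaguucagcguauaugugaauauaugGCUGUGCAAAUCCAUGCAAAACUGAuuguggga
Mir19b-1 hairpin: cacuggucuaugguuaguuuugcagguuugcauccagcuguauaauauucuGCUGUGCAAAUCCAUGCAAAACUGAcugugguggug
Mir92-2 hairpin: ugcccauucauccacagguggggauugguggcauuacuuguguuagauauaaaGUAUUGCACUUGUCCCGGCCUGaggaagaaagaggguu
Mir92-1 hairpin: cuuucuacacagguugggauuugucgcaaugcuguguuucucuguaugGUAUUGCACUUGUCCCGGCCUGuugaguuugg
A read of the mature 3p miRNA alone fits either copy, so the levels of Mir19b-2 and Mir92-2, and those of Mir19b-1 and Mir92-1, can be too low by an unknown amount. The other 7 members share at most 17 bases with another miRNA hairpin of the annotation. Copies outside miRNA genes were not looked for.

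In the genome (build mm10) all 9 members lie on the minus strand. Mir106b (ENSMUSG00000065514) stands at chr5:138165737-138165818, Mir93 (ENSMUSG00000065527) at chr5:138165523-138165610 and Mir25 (ENSMUSG00000065394) at chr5:138165321-138165404. Mir106b lies in an intron of both Mcm7 transcripts that span it, and Mir93 and Mir25 in an intron of 2 and an exon of 1 of the 3 that overlap them. From the first to the last base the cluster covers 498 bases, with gaps of 126 and 118 bases between hairpins. On chromosome X, Mir106a (ENSMUSG00000065456) stands at chrX:52742503-52742567, Mir18b (ENSMUSG00000077111) at chrX:52742331-52742413 and Mir20b (ENSMUSG00000076041) at chrX:52742113-52742192. Mir19b-2 (ENSMUSG00000065473) follows at chrX:52741983-52742066, Mir92-2 (ENSMUSG00000065613) at chrX:52741838-52741928 and Mir363 (ENSMUSG00000070106) at chrX:52741693-52741767. These 6 hairpins cover 875 bases with gaps of 46 to 138 bases. Mir106a overlaps an exon of all 4 transcripts of the noncoding gene Kis2, and the other 5 overlap no gene but their own in the annotation. GC content of the hairpins separated the clusters, at 55.7 to 63.1% in miR-106b-25 and 38.1 to 47.3% in miR-106a-363. Whether GC content played a part in the levels was not tested.

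Levels are in CPM, a gene's sense-strand count scaled to a library total of 1000000 over all miRNA genes. The totals were 1281201 in replicate 1 and 1297647 in replicate 2. At this depth 3 counts, the limit that a count of 0 allows, are 2.34 and 2.31 CPM. Values with ± are means with the SD over the 2 libraries (n = 2). As a check of the tissue, 12 of 13 neural marker genes with a row reached 2 CPM in both libraries and took 6.05 and 5.62% of the counts. Mir92b, 1 of these genes, alone held 18428 and 15730 CPM. Markers of the Hox clusters, from hindbrain, spinal cord and trunk, took 0.0210 and 0.00840%, erythroid markers 0.0606 and 0.0371%, leukocyte markers 0.0788 and 0.0804% and striated muscle markers 0.0253 and 0.0134%. The endothelial gene Mir126a took 3.46 and 3.03% and mesenchyme markers 1.92 and 1.73%. All 3 erythroid, 4 leukocyte and 6 mesenchyme genes and Mir126a also reached 2 CPM in both libraries. So did 5 of 6 Hox genes and 4 of 7 muscle genes with a row, so detection did not set the neural list apart. Mir133a-1, Mir133a-2 and Mir1a-1 of the muscle list and Mir196a-1 of the Hox list were at 0 in both libraries. These genes are numbered copies, as are several other markers, the neural ones among them. Because reads that map to several places were left out, counts of such copies can be too low. A count of 0 there does not show that the miRNA was absent. The part of other cell types in the levels below was not tested.

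In the counts at hand, without reads that map to several places, the miR-106b-25 cluster gave the larger output, although it has fewer hairpins. Its 3 genes held 48936 counts in replicate 1 and 52303 in replicate 2, or 3.82% (95% Wilson interval 3.79 to 3.85%) and 4.03% (3.997 to 4.06%) of all counts. The 6 genes of the miR-106a-363 cluster held 18051 and 20249 counts, or 1.41% (1.39 to 1.43%) and 1.56% (1.54 to 1.58%). In CPM the clusters stood at 39251 ± 1492 and 14847 ± 1071, and the libraries did not overlap between them. Within a library the log2 ratio of miR-106b-25 over miR-106a-363 was 1.44 in replicate 1 and 1.37 in replicate 2, in the mean 1.40 ± 0.05 or 2.65-fold. The miR-106a-363 total lacks the reads that fit both copies of miR-92a-3p or miR-19b-3p. No such reads are known to be missing from miR-106b-25, so the ratio can be too high by an unknown amount. Over the whole file 1165381 and 1001079 reads mapping to several places were left out, more than the counts of either cluster. How many of them belong to these copies is not known. The order of the clusters with them included is therefore not known either. PCR copies of a molecule are counted as separate reads, so all intervals and limits here cover counting error only. In pooled tissue, fewer cells that express a gene and less RNA per cell cannot be told apart. All 9 members reached 2 CPM in both libraries.

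Mir93 and Mir106b carried nearly all counts of their cluster. Mir93, whose mature miRNA has the miR-17 seed, had 24790 and 26272 counts, or 19349 CPM in replicate 1 and 20246 CPM in replicate 2 (19797.5 ± 634). Mir106b, with the same seed, had 22661 and 24657 counts, or 17687 and 19001 CPM (18344 ± 929). They ranked 9 and 11 of all miRNA genes in the mean. Mir93 was above Mir106b in both libraries, by a log2 ratio of 0.13 (95% exact Clopper-Pearson interval 0.10 to 0.16) and 0.09 (0.07 to 0.12). Per 100 bases of hairpin this order turned in replicate 2, with 21987.5 against 21569.9 CPM for Mir93 and Mir106b in replicate 1 and 23007 against 23172 CPM in replicate 2. A read holds about a whole mature miRNA whatever the length of its hairpin, so levels are otherwise given without division by length.

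Mir25, the third hairpin and the one with the miR-92 seed, lay far below its neighbours. It had 1485 and 1374 counts, or 1159 and 1059 CPM (1109 ± 70.9), and ranked 108. This was 3.03% of the cluster's counts in replicate 1 and 2.63% in replicate 2, beside 46.3 and 47.1% for Mir106b and 50.7 and 50.2% for Mir93. The log2 ratio of Mir25 over Mir106b was -3.93 and -4.17, a 16.5-fold lower level in the mean (-4.05 ± 0.17). None of the 3 hairpins of this cluster shares a stretch of 20 bases with another miRNA hairpin.

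**Figure D1:**
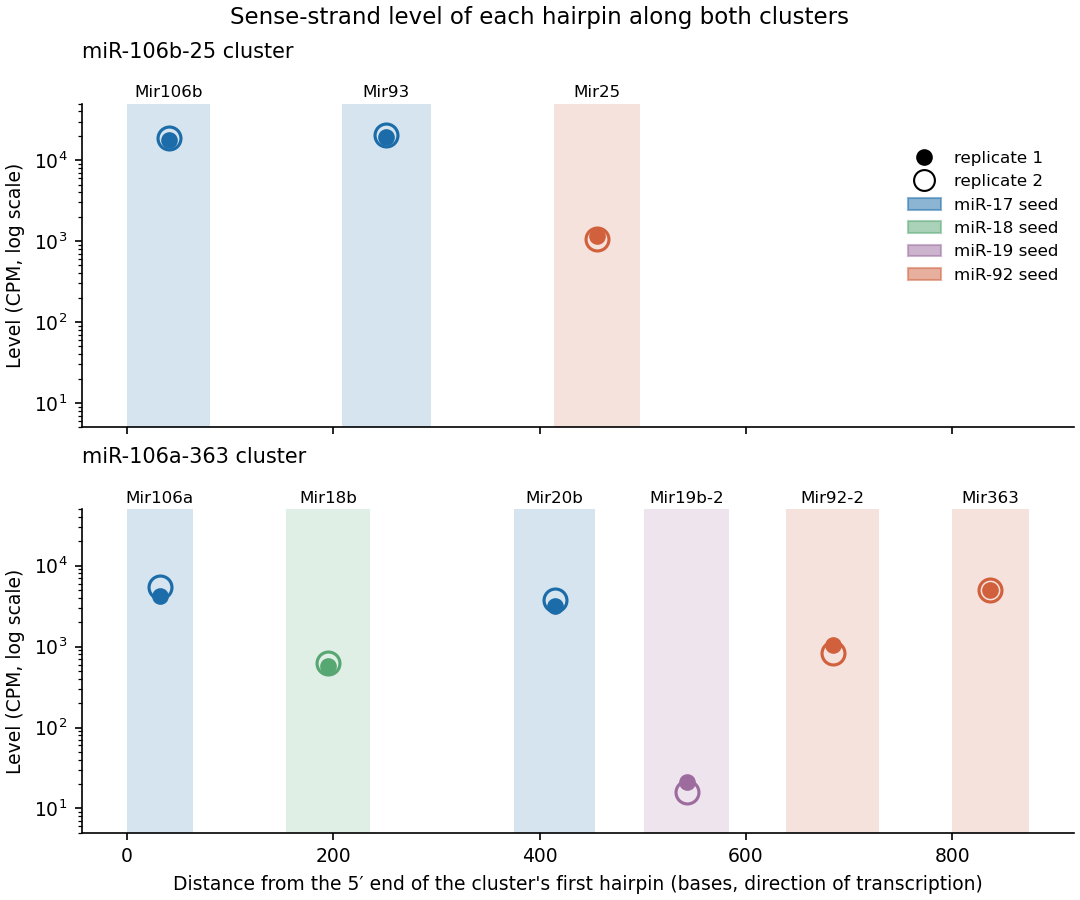
Level of each hairpin (CPM, log scale) against its distance in bases from the 5′ end of the first hairpin of its cluster, with shaded bars for the hairpins, filled points for replicate 1 and open points for replicate 2, coloured by seed. Mir93 and Mir106b stand above all other members, Mir25 far below them, and Mir363, at the far end of its cluster, stands level with Mir106a at the near end.

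In the miR-106a-363 cluster the output was spread over more hairpins, and Mir363, with the miR-92 seed, stood level with Mir106a, with the miR-17 seed. Mir363 had 6460 and 6457 counts, or 5042 and 4976 CPM (5009 ± 46.8). Mir106a had 5473 and 6986 counts, or 4272 and 5384 CPM (4828 ± 786). The order of Mir363 and Mir106a differed between the libraries and their ranges overlapped, so neither can be called higher. Mir20b, with the miR-17 seed, had 4007 and 4885 counts, or 3128 and 3765 CPM (3446 ± 450.4), below Mir106a in both libraries. These 3 hairpins made up 35.8, 30.3 and 22.2% of the cluster's counts in replicate 1 and 31.9, 34.5 and 24.1% in replicate 2, in the order Mir363, Mir106a, Mir20b. The cluster's total lacks the reads that fit both copies of miR-92a-3p or miR-19b-3p, so these shares can be too high.

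The remaining hairpins of the X-linked cluster were low. Mir92-2 had 1343 and 1090 counts, or 1048 and 840 CPM (944 ± 147), and Mir18b had 741 and 810 counts, or 578 and 624 CPM (601 ± 32.4). Mir19b-2 had 27 and 21 counts, or 21.1 and 16.2 CPM (18.6 ± 3.46), the lowest of the 9 members and 269-fold below Mir363. Of these, Mir92-2 and Mir19b-2 carry the shared stretches printed above, whereas Mir18b shares at most 17 bases with another hairpin. The miR-19 hairpin Mir19a, whose mature sequence stands in no other hairpin, was also low, at 128 and 157 CPM (143 ± 20.6). What part the excluded reads have in the low level of Mir19b-2 was not tested.

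Ordered by mean CPM the members ran Mir93, Mir106b, Mir363, Mir106a, Mir20b, Mir25, Mir92-2, Mir18b and Mir19b-2. In this order Mir92-2 and Mir19b-2 can stand too low, because reads that fit both of their copies are missing. The ranges of neighbours over the 2 libraries did not overlap, except for Mir363 and Mir106a, though Mir25 and Mir92-2 came close, at 1059 CPM for the lower library of Mir25 and 1048 CPM for the higher library of Mir92-2. The miRNA genes nearest to each member in mean CPM were named as those most like it in level, over 2 libraries. Mir93 and Mir106b stood on either side of Mirlet7g (18769.6 ± 1131 CPM), with Mir30e (25025 ± 1327) above and Mir322 (17764 ± 328) below. Mir872 (5012 ± 498) came just above Mir363, and Mir15b (4696 ± 335) just below Mir106a. Such places are by the mean and can change with the library. In replicate 2 Mir872 (4660 CPM) lay below Mir363 (4976 CPM). In replicate 1 Mir15b (4933 CPM) lay above Mir106a (4272 CPM). Mir20b fell between Mir301 (3458 ± 120 CPM) and Mir16-1 (3418 ± 371), Mir25 between Mir467e (1126 ± 24.4) and Mir200c (1053 ± 36.9), and Mir92-2 between Mir325 (964 ± 99.2) and Mir598 (884 ± 31.6). Mir18b fell between Mir221 (608 ± 30.7 CPM) and Mir32 (599.97 ± 20.2), and Mir19b-2 between Mir7654 (19.0 ± 1.82) and Mir150 (18.2 ± 0.713).

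Set hairpin by hairpin, the miR-106b-25 cluster exceeded the miR-106a-363 cluster in all 4 pairs with the miR-17 seed. With the miR-92 seed, Mir25 lay below Mir363 and slightly above Mir92-2, whose level can be too low. Mir106b over Mir106a had a log2 ratio of 2.05 (95% Clopper-Pearson interval 2.01 to 2.09) in replicate 1 and 1.82 (1.78 to 1.86) in replicate 2, in the mean 1.93 ± 0.16 or 3.82-fold. Mir106b over Mir20b stood at 2.50 and 2.34 (2.42 ± 0.12). Mir93 over Mir106a stood at 2.18 and 1.91 (2.05 ± 0.19), and Mir93 over Mir20b at 2.63 and 2.43 (2.53 ± 0.14), the widest of the 4 pairs at 5.77-fold. All 4 ratios were larger in replicate 1 than in replicate 2. Summed over the hairpins with this seed, the ratio of the clusters was 2.32 and 2.10 (2.21 ± 0.16), or 4.63-fold.

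In the counts at hand, the pairs with the miR-92 seed did not share a direction. Mir25 over Mir363 had a log2 ratio of -2.12 (-2.20 to -2.04) in replicate 1 and -2.23 (-2.32 to -2.15) in replicate 2, so Mir25 was 4.52-fold lower in the mean (-2.18 ± 0.08). Mir25 over Mir92-2 stood at 0.14 (0.04 to 0.25) and 0.33 (0.22 to 0.45), in the mean 0.24 ± 0.13, a small difference against a copy whose level can be too low. Which of Mir25 and Mir92-2 is higher is therefore not known. Mir25 over Mir92-2 and Mir363 together stood at -2.39 and -2.46 (-2.43 ± 0.05). Every one of these ratios kept its sign in both libraries. With 2 libraries no exact permutation test can reach a p under 0.05, and none was made.

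**Figure D2:**
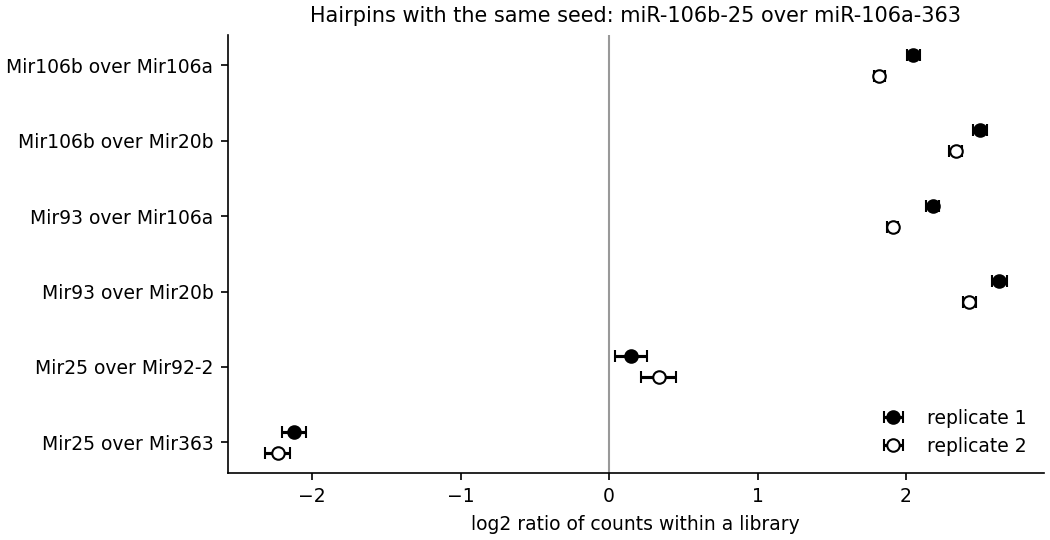
log2 ratio of counts within each library for the 6 pairs of hairpins with the same seed, miR-106b-25 over miR-106a-363, with replicate 1 filled, replicate 2 open and 95% Clopper-Pearson intervals of counting error. The 4 pairs with the miR-17 seed lie between 1.82 and 2.63, Mir25 over Mir92-2 just above 0 and Mir25 over Mir363 below -2.

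The clusters therefore differed in the mix of seeds they held. In miR-106b-25, hairpins with the miR-17 seed had 31.9 and 37.1 times the counts of Mir25 (log2 5.00 and 5.21). In miR-106a-363 the same ratio was 1.21 and 1.57 (log2 0.28 and 0.65), and in miR-17-92, for Mir17 and Mir20a over Mir92-1, it was 9.43 and 13.6. The ratio of miR-106b-25 was the highest of the 3 in both libraries. Reads of miR-92a-3p that fit both copies are missing from Mir92-1 and Mir92-2, so the ratios of the other clusters can be too high, and no order is given between them. Mir363 makes up most of the miR-92-seed counts of the X-linked cluster, and the miR-17-92 cluster has no hairpin in its place.

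Taken over all miRNA genes with a given seed, the share of each cluster depended on the seed. The 7 genes with the miR-17 seed, Mir6383 without a count among them, held 139260 ± 15026 CPM in all. Of these counts Mir106b and Mir93 gave 28.8% (95% Wilson interval 28.6 to 29.0%) in replicate 1 and 26.2% (25.99 to 26.4%) in replicate 2. Mir106a and Mir20b gave 5.75% (5.64 to 5.87%) and 6.10% (6.00 to 6.21%), and Mir17 and Mir20a 65.5 and 67.7%. Among the 7 genes with the miR-92 seed, which held 32945 ± 3226 CPM, Mir363 and Mir92-2 gave 17.3% (16.9 to 17.6%) and 18.97% (18.6 to 19.4%) and Mir25 only 3.29% (3.13 to 3.46%) and 3.45% (3.28 to 3.64%). Mir92b, outside the clusters, gave 52.3 and 51.3%, Mir92-1 25.4 and 24.4%, Mir32 1.74 and 1.91%, and Mir367 had 4 counts and 0. Gene counts join both arms of a hairpin, so these are shares by the seed of the main arm, not counts of mature miRNAs. Because reads that fit both Mir92-1 and Mir92-2 were left out, the shares of Mir25, Mir363 and Mir92b can be too high and those of Mir92-1 and Mir92-2 too low.

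The miR-18 and miR-19 seeds have 1 member each. Mir18b gave 3.82% (3.56 to 4.10%) and 3.72% (3.48 to 3.98%) of the counts of the miR-18 seed, all others coming from Mir18. Mir19b-2 gave 10.8% (7.50 to 15.2%) and 7.42% (4.90 to 11.1%) of the counts of the miR-19 seed, which came to 251 and 283 over 3 genes. These counts lack the reads of miR-19b-3p that fit both of its copies, so the part of Mir19b-2 in this seed cannot be read from them.

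**Figure D3:**
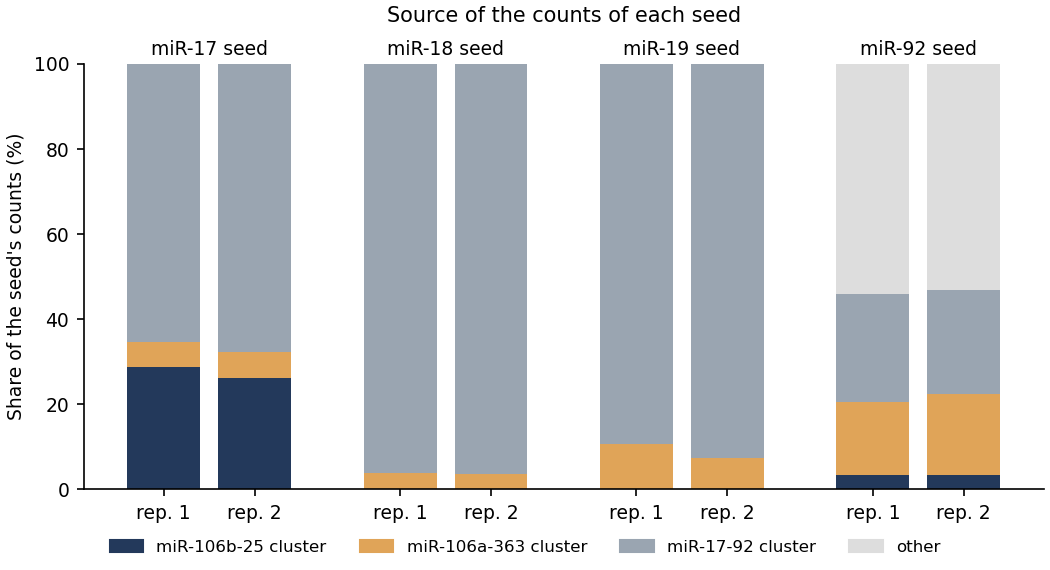
Share of the counts of each seed (%), without reads that map to several places, stacked by the cluster that holds the hairpins, for each library. miR-106b-25 gives 28.8 and 26.2% of the miR-17 seed and 3.29 and 3.45% of the miR-92 seed, and miR-106a-363 gives 5.75 and 6.10% of the miR-17 seed and 17.3 and 18.97% of the miR-92 seed.

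Against their counterparts by position in the miR-17-92 cluster, Mir106a, Mir18b and Mir20b were lower, by unequal amounts. Mir20b over Mir20a had a log2 ratio of -3.004 and -3.014 (-3.01 ± 0.0072), 8.05-fold lower. Mir106a over Mir17 stood at -3.79 and -3.72 (-3.76 ± 0.05), 13.5-fold lower. Mir18b over Mir18 stood at -4.65 and -4.69 (-4.67 ± 0.03), 25.5-fold lower. These 3 pairs kept their order in both libraries. Mir92-2 over Mir92-1 (-3.12 ± 0.04) and Mir19b-2 over Mir19b-1 (-1.29 ± 0.22) compare copies of the same mature sequence, each missing the reads that fit both, so the gap between the copies is not known. Levels of the counterparts were 65099 ± 8463 CPM for Mir17, 27745 ± 3763 for Mir20a, 15364 ± 1125 for Mir18 and 8202 ± 1030.4 for Mir92-1.

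Between the libraries, the members with the miR-17 seed were lower in replicate 1. The counts of each gene were set against the library totals in an exact binomial test, two-sided, and p-values were adjusted by Benjamini-Hochberg over the 398 genes with at least 10 counts in total. Mir106a had a log2 ratio of replicate 1 over replicate 2 of -0.33 (95% interval -0.39 to -0.28, exact adjusted p = 3.31e-36). Mir20b stood at -0.27 (-0.33 to -0.21, exact adjusted p = 4.73e-17), Mir106b at -0.10 (-0.13 to -0.08, exact adjusted p = 8.71e-14) and Mir93 at -0.07 (-0.09 to -0.04, exact adjusted p = 2.48e-06). Mir92-2 was higher in replicate 1, by 0.32 (0.20 to 0.44, exact adjusted p = 4.46e-07). Mir25 at 0.13 (exact adjusted p = 0.0539), Mir18b at -0.11 (exact adjusted p = 0.298), Mir19b-2 at 0.37 (exact adjusted p = 0.614) and Mir363 at 0.02 (exact adjusted p = 0.673) did not pass. Of the 9 members, 5 were called, 4 lower and 1 higher, beside 28.4% of all 398 genes, 7.79% lower and 20.6% higher. None of the 9 reached 2-fold, and nor did any of the 154 genes with 1000 counts or more in total, a depth that 8 of the members had. Over all genes tested 2.76% were both called and at least 2-fold apart.

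These calls compare the 2 libraries against counting error alone. Genes with many counts pass such a test readily: of the genes with 1000 counts or more in total, 83 of 154 were called, and 5 of the 8 members at that depth. At that depth the median absolute log2 ratio was 0.12 for the members and 0.11 for all genes. With the spread between libraries set to a coefficient of variation of 0.1, near the 10.4% that edgeR estimated from these same libraries, the edgeR exact test called 0 of the 9 members, 0 at an unadjusted p under 0.05, and 8 of all genes. A spread taken from the libraries that are compared leaves few calls by construction, so this count says nothing about whether the members were stable.

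Ratios between hairpins of the same cluster do not depend on library scaling, and they differed between the libraries in all 3 clusters in the same direction. The log2 ratio of Mir25 to Mir106b and Mir93 together was -5.00 in replicate 1 and -5.21 in replicate 2, a difference of 0.21 (95% interval of counting error 0.11 to 0.32). For Mir92-2 and Mir363 to Mir106a and Mir20b the difference was 0.37 (0.31 to 0.43), and for Mir92-1 to Mir17 and Mir20a it was 0.53 (0.49 to 0.57). The last 2 rest on copies of miR-92a-3p, and reads that map to several places, left out of the counts, were 41.7 and 39.1% of the mapped reads; their part in these differences was not tested. By single hairpins, all 6 tested genes with the miR-17 seed had a log2 ratio of replicate 1 over replicate 2 below 0, from -0.33 to -0.07. All 6 tested genes with the miR-92 seed had one above 0, from 0.02 to 0.32, but with TMM scaling Mir363 stood at -0.053 (-0.031 with DESeq2 size factors) and Mir32 at -0.0029. This grouping was seen in the data first and was not tested. The main arm of the miR-17 seed is the 5p arm, and that of the miR-92 seed the 3p arm, except for Mir32.

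Of the 8 other genes listed with these seeds (Mir17, Mir18, Mir19a, Mir20a, Mir19b-1, Mir92-1, Mir92b and Mir32), 5 were called by the same test. Over all 398 genes tested 28.4% were called, and 83 of the 154 with 1000 counts or more in total. Mir17 (-0.27), Mir20a (-0.28) and Mir18 (-0.15) were lower in replicate 1, and Mir92-1 (0.26) and Mir92b (0.23) higher. None reached 2-fold.

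**Figure D4:**
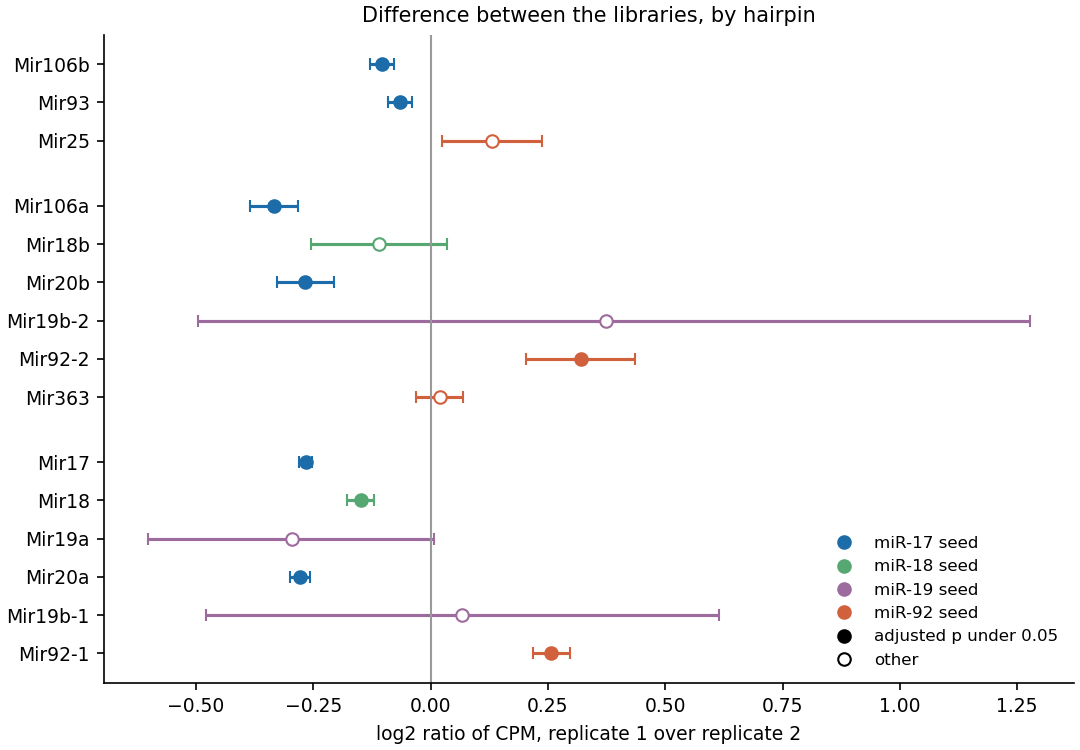
log2 ratio of CPM, replicate 1 over replicate 2, for the members and the hairpins of the miR-17-92 cluster, in 3 blocks by cluster (miR-106b-25, miR-106a-363, miR-17-92), with 95% intervals of counting error. Filled points passed the exact binomial test at an adjusted p of 0.05. Points of the miR-17 seed lie to the left of 0 and those of the miR-92 seed to the right, with Mir363 at 0.02, which moves to -0.053 with TMM scaling.

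The opposite strand gave no signal at these loci. Each of the 9 members had 0 counts on the opposite strand in both libraries, which allows up to 3 counts in each, beside 47940 and 43222 opposite-strand counts over all miRNA genes. This was not particular to the members. The hairpins of the miR-17-92 cluster and Mir32 were also at 0 in both libraries, and Mir92b had 1 count and 0. The share of all genes at 0 was not counted.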

How the data were processed

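MicroRNA-seq of 2 libraries of 1 group was used. Per the labels and the deposited text files, reads were aligned to mm10 and counted per gene of GENCODE M4. No source used here names an aligner or a counting tool. The deposited files hold raw counts for both strands, the sense strand and the opposite strand. The sense counts (96.4 and 96.8% of the gene counts) were used as deposited. The 4 summary rows were left out, among them 1165381 and 1001079 reads mapping to several places, 41.7 and 39.1% of mapped reads.

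Positions are from GENCODE M21, also on GRCm38, and hairpins were compared among its miRNA transcripts. All 9 members matched the RefSeq hairpins in position and sequence. The replicates are separate pools with 1 donor entry. The exact binomial test has no term for the spread between pools, so its p-values set the difference between the libraries against counting error only. Within-library ratios had 0.5 counts added. No group contrast exists for edgeR's quasi-likelihood test. TMM and the exact test used edgeR 4.0.16 and size factors DESeq2 1.42.0, in R 4.3.3 and Python 3.11.15 with scipy 1.17.1.

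The members and lists were chosen with earlier results of these data known. The text names the members, the hairpins of Mir17hg, other genes with a member's seed at 2 CPM or more and the genes next to a member in level. Mir6383 and Mir367, which share a seed below that level, and Mir126a, a marker, were named besides.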

Additional observations from a re-analysis of the deposited data

How the results depend on the processing

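No comparison between conditions was possible. No paired analysis was possible because there is only 1 group. The signs of the cluster and hairpin ratios were the same with 1 or 5 counts added and in either library alone. The unstranded column holds the same counts for these hairpins, which had 0 on the opposite strand. Its ratios could not differ, so they are no further check. Over hairpins that share no stretch of 20 bases, the log2 ratio of the clusters was 1.502. This only drops Mir19b-2 and Mir92-2 from the miR-106a-363 cluster, so the ratio could only rise. It says nothing about the reads that fit both copies. Per member in place of the sum, an alternative chosen after seeing the data, the log2 ratio of the clusters was 2.40. With all reads of the file as the total, the clusters stood at 13813 and 5235 CPM. With a stretch of 25 bases, 1 member shared sequence with another hairpin in place of 2.

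The same 5 members were called with TMM or DESeq2 scaling, without a minimum count and with the unstranded column. With a minimum of 100 counts, Mir25 was called too (exact binomial test, adjusted p = 0.0382). The edgeR exact test called 0 members at a coefficient of variation of 0.1 or 0.2, 0 at an unadjusted p under 0.05, and 8 and 0 of all 398 genes (21 and 13 unadjusted). Reversed in sign were Mir363 with TMM (-0.053) and DESeq2 (-0.031), and Mir19b-1 (-0.0047) and Mir32 (-0.0029) with TMM, none of them called. The library test cannot be run with a replicate left out. Depth limits Mir19b-2, at 27 and 21 counts.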
